A study of Homo sapiens with 6 samples.

Results

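Small nucleolar RNA (snoRNA) host genes are transcripts whose introns carry snoRNAs, the guide RNAs that direct chemical modification of ribosomal and spliceosomal RNA. They were taken here as all genes with a symbol of the form SNHG followed by a number, together with GAS5, ZFAS1, DANCR, EPB41L4A-AS1, TAF1D and MIR17HG, that held at least 30 counts over the 6 libraries. Of 34 matching symbols, 32 met this minimum, among 63241 genes in the files, and SNHG27 and SNHG31 fell short with 4 and 17 counts. All libraries were made from MDA-MB-231 (labelled WT), an established line of human breast carcinoma cells without hormone receptors or HER2 amplification. The cells were exposed for 24 h either to 5 μM NCD (nitidine chloride, a plant alkaloid), with 3 libraries, or to 0.1% DMSO as the control, also with 3 libraries. The vehicle of the NCD cultures is not given in the labels, and in NCD replicates 2 and 3 the free text names other line numbers than MDA-MB-231, which their cell line field gives. No label ties the replicates to separate cultures, so p-values measure the spread between these libraries, which may be technical.

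When the intron of a host gene is spliced out, the snoRNA is trimmed from it and assembled with either the box C/D proteins, which guide methylation of ribose, or the box H/ACA proteins, which guide pseudouridylation. What is left is the spliced host RNA. Many host RNAs code for no long protein, begin with a 5′ terminal oligopyrimidine (TOP) tract like messages of the translation machinery, and are degraded by nonsense-mediated decay (NMD) when ribosomes translate their short reading frames, and they are known to accumulate when translation or growth stops. GAS5 was named for this growth-arrest behaviour. TAF1D differs in coding for a TBP-associated factor of RNA polymerase I, and MIR17HG carries the miR-17-92 microRNA cluster rather than snoRNAs.

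The TOP starts are shown because they are a sequence feature that many of these genes share. In GENCODE release 29 on GRCh38, a TOP start was taken as a C at the first base of an annotated transcript followed by at least 4 further pyrimidines on the transcribed strand. Of the 32 host genes, 16 (50%) had at least 1 transcript with such a start, against 16.2% of all tested genes with an annotation and 8.14% of tested long noncoding RNA (lncRNA) genes. The host genes have a median of 5 annotated transcripts, against 7 for all tested genes and 2 for tested lncRNA genes. Below are the first 30 bases of the first transcript with a TOP start, by identifier, of 7 host genes, with the leading pyrimidine run in capitals. They lie at chr1:173867960-173867989 (minus strand, GAS5), chr6:85678704-85678733 (minus, SNHG5), chr16:2155329-2155358 (minus, SNHG19), chr17:76557769-76557798 (plus, SNHG16), chr20:49278642-49278671 (plus, ZFAS1), chr17:16438975-16439004 (plus, SNHG29) and chr1:28581844-28581873 (minus, SNHG12). EPB41L4A-AS1 (chr5:112160526-112160555, plus) and MIR17HG (chr13:91347820-91347849, plus) have no such start, and their first annotated transcript is shown for contrast, in lower case.
GAS5: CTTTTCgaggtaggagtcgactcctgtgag
SNHG16: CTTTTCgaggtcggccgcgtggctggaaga
SNHG19: CTTTTCggggtcgagtccgagggggaagag
SNHG5: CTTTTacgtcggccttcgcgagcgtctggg
ZFAS1: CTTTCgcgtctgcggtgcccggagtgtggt
SNHG29: CTCCTTTTgtgaggattgggatattccgac
SNHG12: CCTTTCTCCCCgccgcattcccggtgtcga
EPB41L4A-AS1: tgtcgggtcccaaaatacgtggtctaaagt
MIR17HG: gaagctctcctcgcggggcgggccggccgg

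The libraries held 18223594 to 19410833 expected counts with DMSO and 18232169 to 21629653 with NCD. Levels are given as CPM, counts scaled to the same library size, after adjustment by the trimmed mean of M-values (TMM). All log2 fold changes, standard errors (SE) and adjusted p-values are from the quasi-likelihood test of edgeR, with Benjamini-Hochberg adjustment over 15295 tested genes. "Rose" and "fell" refer to an adjusted p below 0.05. VIM, a mesenchymal marker of this line, stood at 2490 to 3160 CPM, and the defining markers of luminal cells (ESR1, at most 0.384 CPM) and leukocytes (PTPRC, at most 0.0566 CPM) were near 0. In such bulk RNA, fewer expressing cells and less RNA per cell cannot be told apart.

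After NCD treatment the host genes were shifted upward. Of the 31 tested members, 17 rose (54.8%) and 4 fell (12.9%), whereas 35.3% of all tested genes rose and 34.1% fell. The largest rises were those of SNHG11, SNHG19, SNHG9 and SNHG22, at 2.01 to 3.0 times the DMSO level, and the largest fall was that of MIR17HG, to 0.343 of it. The median log2 fold change was 0.38 over the members and 0.04 over all tested genes. Past a 2-fold change, 4 members were higher (12.9%, against 13.5% of tested genes) and 1 was lower (3.23%, against 17.5%). Every NCD library lay above every DMSO library for 17 members and below for 5, against 37.2% and 35.3% of all tested genes, and the groups overlapped for 9. SNHG18, with 41 counts in all, did not pass the filter on low counts, so the 31 are the members that could be tested. SNHG22 and SNHG25 held under 10 counts in at least 1 DMSO library and passed that filter through their NCD libraries, so a difference was built into their passing. With at least 10 counts required in every library, SNHG28 (5.44 to 14.72 counts per library) dropped out as well. Then 28 members remained, of which 15 rose, 3 of them past 2-fold, and 4 fell.

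**Figure D1:**
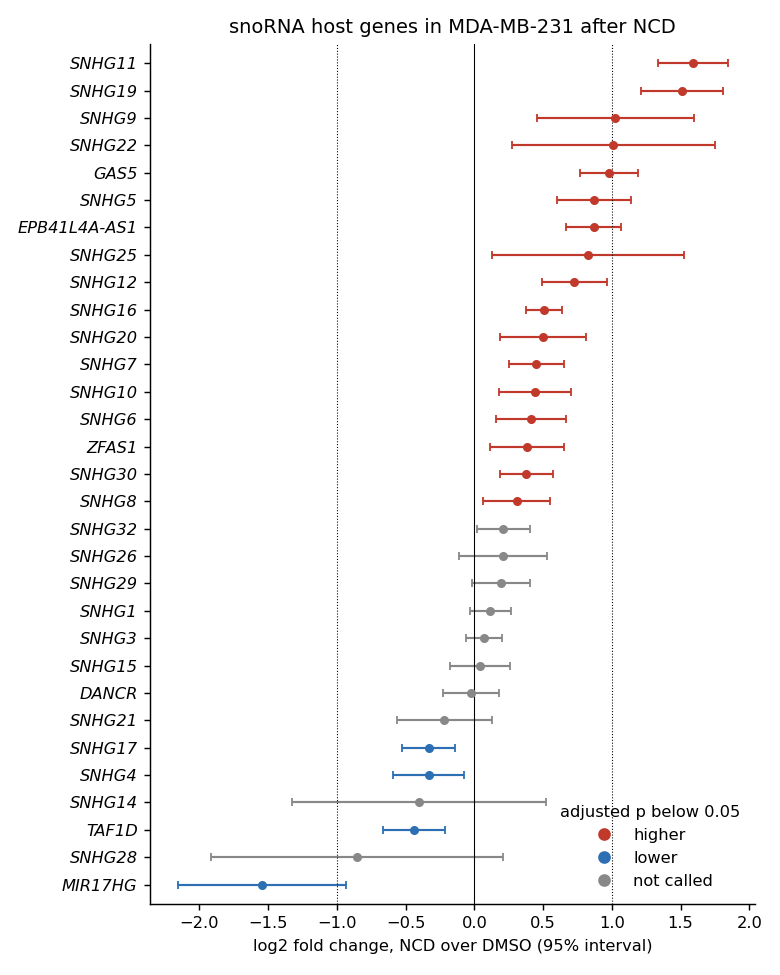
Log2 fold change of each tested host gene, NCD over DMSO, with its 95% interval and coloured by whether it passed an adjusted p below 0.05. The order runs from SNHG11 at 1.59 to MIR17HG at -1.55, with 17 genes higher, 4 lower and 10 not called.

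Most host genes are short, and short genes as a whole rose more often in these libraries than all tested genes. The span from start to end was at most 20 kb for 27 of the 32 members, with a median of 6.69 kb against 29 kb for tested genes. Among the 5868 tested genes of at most 20 kb, 51.0% rose and 14% fell, with a median log2 fold change of 0.37. The 26 tested members of that span gave 61.5% and 11.5%, with a median of 0.40, so their shares lay near those of other short genes. The 1110 short lncRNA genes gave 33.0% and 17.6% with a median of 0.25. The part of gene length in the rise of the host genes was not tested.

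GAS5 (ENSG00000234741, chr1:173863900-173868882, minus strand), which carries 10 box C/D and 1 box H/ACA snoRNAs, was at 223, 192 and 202 CPM in DMSO replicates 1 to 3 and at 428, 432 and 353 CPM in NCD replicates 1 to 3. Every NCD library was above every DMSO library. The means were 206 ± 16.3 CPM and 405 ± 44.5 CPM (SD, n = 3), a log2 fold change of 0.98 (SE 0.09, adjusted p = 1.53e-05).

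SNHG5 (ENSG00000203875, chr6:85660950-85678748, minus strand), the host of SNORD50A and SNORD50B, was at 310.1, 229 and 271 CPM with DMSO and at 525, 524 and 430.2 CPM with NCD. The groups did not overlap, and DMSO replicate 2 was the lowest library. Its log2 fold change was 0.87 (SE 0.12, adjusted p = 0.000163).

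SNHG16 (ENSG00000163597, chr17:76557766-76565348, plus strand), which carries the SNORD1 family, was at 176, 159.9 and 168 CPM with DMSO and at 234, 245 and 238 CPM with NCD. This was a smaller but even change, with a log2 fold change of 0.51 (SE 0.06, adjusted p = 4.76e-05), and both groups were tight. ZFAS1 (ENSG00000177410, chr20:49278178-49295738, plus strand), the host of the SNORD12 family, was at 201, 148 and 184 CPM with DMSO and at 240.4, 253 and 202 CPM with NCD. Its lowest NCD library, replicate 3, lay just above the highest DMSO library, and its log2 fold change was 0.38 (SE 0.12, adjusted p = 0.0182). The call of ZFAS1 was lost when DMSO replicate 2 or 3 or NCD replicate 1 or 2 was left out (adjusted p = 0.051 to 0.0707).

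SNHG29 (ENSG00000175061, chr17:16438822-16478678, plus strand), the host of SNORD49A, SNORD49B and SNORD65, was the member with the most counts and the highest level per kilobase of exon in both groups. It was at 637, 507 and 589.5 CPM with DMSO and at 679, 694 and 609 CPM with NCD, so the groups overlapped. Its log2 fold change of 0.19 (95% interval -0.02 to 0.41) did not pass the test (adjusted p = 0.0896).

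These 5 genes, SNHG29, SNHG5, GAS5, ZFAS1 and SNHG16, held 63.1% of all host gene counts and set the summed level. The sum over the 32 members was 2529, 2177 and 2423 CPM with DMSO and 3121, 3239 and 2884 CPM with NCD, a ratio of 1.30. All NCD sums were above all DMSO sums, but with 3 against 3 libraries the exact two-sided permutation test cannot go below p = 0.1, which was its value (adjusted p = 0.15 over 3 sums). Without the 5 genes the ratio was 1.08, with the same p. The 84 ribosomal protein genes, whose messages also begin with TOP tracts, summed to 71780 to 94100 CPM with DMSO and 74000 to 89710 CPM with NCD, a ratio of 1.00 (exact two-sided permutation p = 1.0, adjusted 1.0). As a share of unscaled library counts, the host genes took 0.206 to 0.23% with DMSO and 0.314 to 0.343% with NCD.

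**Figure D2:**
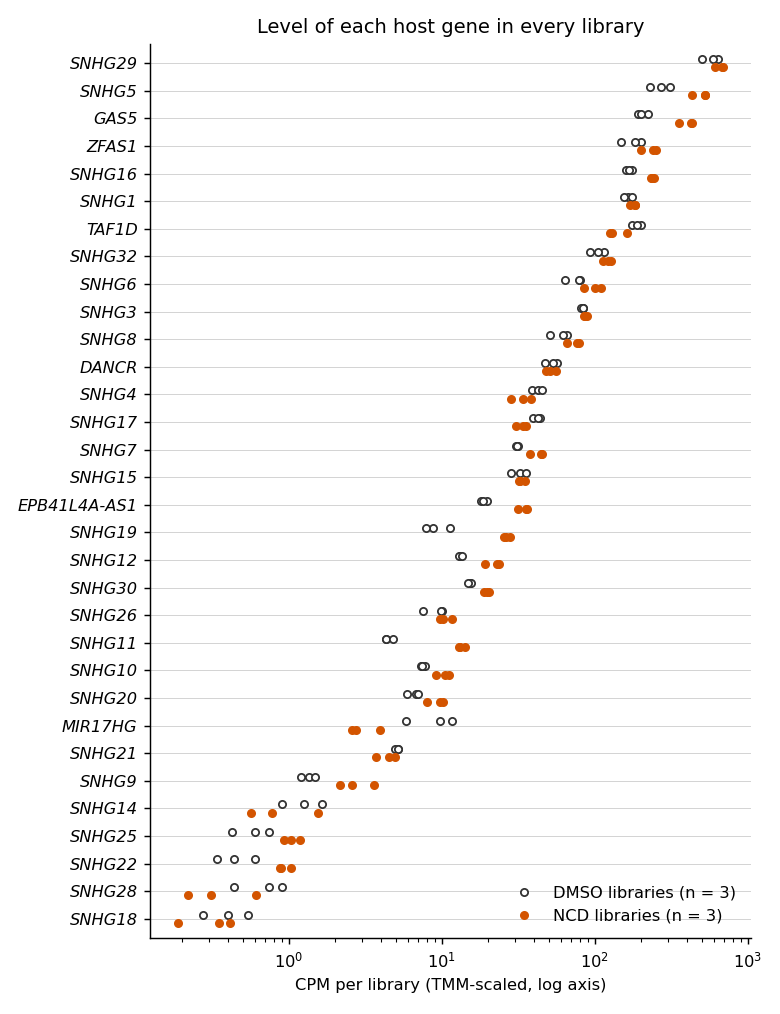
CPM of every host gene in each of the 6 libraries on a log axis, 1 point per library and coloured by group, with 1 gene per line. NCD points lie above DMSO points for GAS5, SNHG5, SNHG11 and SNHG19, below them for MIR17HG and TAF1D, and among them for SNHG29 and DANCR.

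The 2 members with the largest fold changes were of lower abundance. SNHG11 (ENSG00000174365, chr20:38446578-38450921, plus strand), which carries SNORA60 and SNORA71E, was at 4.28, 4.30 and 4.77 CPM with DMSO and at 13.2, 14.2 and 12.9 CPM with NCD. The groups were far apart relative to their spread, with a log2 fold change of 1.59 (SE 0.11, adjusted p = 2.22e-06). SNHG19 (ENSG00000260260, chr16:2154797-2155358, minus strand), which carries SNORD60, was at 8.80, 7.92 and 11.3 CPM with DMSO and at 25.7, 28.0 and 26.3 CPM with NCD. Its log2 fold change was 1.51 (SE 0.13, adjusted p = 7.96e-06). Both held whole counts in every library, and no other measured gene with at least 10 counts overlaps either of them.

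SNHG17 (ENSG00000196756, chr20:38420588-38435353, minus strand), which carries 5 box H/ACA snoRNAs, starts 11.2 kb from SNHG11 on the opposite strand and went the other way. It was at 39.2, 43.7 and 42.8 CPM with DMSO and at 30.4, 34.0 and 35.5 CPM with NCD, below every DMSO library, a log2 fold change of -0.33 (SE 0.08, adjusted p = 0.00667). The ratio of SNHG11 to SNHG17 within a library was 0.109, 0.0984 and 0.112 with DMSO and 0.432, 0.416 and 0.363 with NCD. This ratio needs no scaling between libraries, and its exact two-sided permutation p was 0.1, the smallest possible.

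Among the other members of at least 10 CPM, EPB41L4A-AS1 (ENSG00000224032, chr5:112160526-112164276, plus strand), the host of SNORA13, was at 17.96, 19.8 and 18.6 CPM with DMSO and at 31.3, 35.5 and 36.04 CPM with NCD. The groups did not overlap, and the log2 fold change was 0.87 (SE 0.09, adjusted p = 2.21e-05). SNHG12 (ENSG00000197989, chr1:28578538-28583132, minus strand), the host of SNORA16A, SNORA44, SNORA61 and SNORD99, was at 13.2, 12.96 and 13.5 CPM with DMSO and at 19.1, 23.7 and 22.9 CPM with NCD. It rose without overlap by a log2 fold change of 0.73 (SE 0.11, adjusted p = 0.000228).

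SNHG7, SNHG6, SNHG30 and SNHG8 rose by smaller amounts. SNHG7, a host of box H/ACA snoRNAs, was at 31.6, 30.3 and 31.2 CPM with DMSO and at 44.6, 45.01 and 37.5 CPM with NCD, a log2 fold change of 0.45 (SE 0.09, adjusted p = 0.00154). SNHG6, a box C/D host, was at 79.6, 64.3 and 78.3 CPM with DMSO and at 101, 109 and 84.8 CPM with NCD, a log2 fold change of 0.41 (SE 0.11, adjusted p = 0.00963). Both groups were apart in these genes, with NCD replicate 3 the nearest to the controls. SNHG30, also a box C/D host, was at 15.2, 15.4 and 14.8 CPM with DMSO and at 18.7, 20.4 and 19.7 CPM with NCD, without overlap and with a log2 fold change of 0.38 (SE 0.08, adjusted p = 0.00321). SNHG8, a box H/ACA host, was at 66.3, 51.04 and 61.8 CPM with DMSO and at 76.5, 79.1 and 66.1 CPM with NCD, a log2 fold change of 0.31 (SE 0.11, adjusted p = 0.03). The groups overlapped for SNHG8, since NCD replicate 3 lay just below DMSO replicate 1, and its call was lost when DMSO replicate 2 or 3 or NCD replicate 1 or 2 was left out (adjusted p = 0.0853 to 0.116).

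The rest of the rises came from scarce RNAs. SNHG9 was at 1.21, 1.36 and 1.48 CPM with DMSO and at 2.58, 3.57 and 2.15 CPM with NCD, a log2 fold change of 1.02 (SE 0.25, adjusted p = 0.00555). SNHG22, a scaRNA host (scaRNAs guide modification of spliceosomal RNA in Cajal bodies), held 6 to 10 counts per library with DMSO and 19 to 20.12 with NCD, and its log2 fold change of 1.01 had an SE of 0.33 (adjusted p = 0.0206). SNHG25, at 0.422 to 0.736 CPM with DMSO and 0.931 to 1.18 CPM with NCD, had a log2 fold change of 0.83 (SE 0.31, adjusted p = 0.0384). Neither call held with DESeq2, which gave an adjusted p of 0.112 for SNHG22 and 0.164 for SNHG25. The edgeR call of SNHG25 held without DMSO replicate 2 (adjusted p = 0.0426) but was lost when any other library was left out (adjusted p = 0.0632 to 0.145). That of SNHG22 was lost without DMSO replicate 2 or 3 or NCD replicate 2 (adjusted p = 0.0712 to 0.083). SNHG20 and SNHG10 rose by log2 fold changes of 0.50 and 0.44 at means of 6.55 and 7.52 CPM with DMSO. With ribosomal protein genes as the reference for scaling, the calls of SNHG20, SNHG10 and SNHG30 were lost (adjusted p = 0.0565, 0.0912 and 0.0971).

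Several well-known host genes did not pass the test. SNHG1 (ENSG00000255717, chr11:62851988-62855914, minus strand), the host of the SNORD22 and SNORD25 to SNORD31 group, was at 166, 155 and 175 CPM with DMSO and at 169.6, 184 and 184 CPM with NCD, with overlapping groups. Its log2 fold change was 0.12 (SE 0.07, 95% interval -0.03 to 0.26, adjusted p = 0.144). SNHG32, a box C/D host that GENCODE annotates as protein coding, was at 115, 93.5 and 106 CPM with DMSO and at 123, 128 and 113 CPM with NCD. The groups overlapped, with a log2 fold change of 0.21 (SE 0.09, adjusted p = 0.0529).

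SNHG3, SNHG15 and DANCR, all hosts of box H/ACA snoRNAs, were nearly level. SNHG3 was at 83.9, 81.2 and 83.4 CPM with DMSO and at 85.3, 89.6 and 85.9 CPM with NCD, a log2 fold change of 0.07 (SE 0.06, interval -0.06 to 0.20, adjusted p = 0.294). All its NCD values were above the DMSO values, by little. SNHG15 was at 32.4, 28.5 and 35.7 CPM with DMSO and at 32.3, 35.1 and 31.9 CPM with NCD, a log2 fold change of 0.04 (SE 0.10, interval -0.18 to 0.26, adjusted p = 0.726). DANCR was at 56.4, 47.02 and 53.6 CPM with DMSO and at 51.1, 55.4 and 47.7 CPM with NCD, a log2 fold change of -0.03 (SE 0.09, interval -0.23 to 0.18, adjusted p = 0.81) that turned to 0.17 with scaling by library totals. The groups of SNHG15 and DANCR overlapped.

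Of the scarcer members that did not pass, SNHG26, SNHG21, SNHG14 and SNHG28 had log2 fold changes of 0.21, -0.22, -0.40 and -0.86, with intervals that for SNHG14 (-1.33 to 0.52) and SNHG28 (-1.92 to 0.21) were wide. In the order of the 31 fold changes no 2 neighbours were far apart, the widest gap being 1.82 combined SE.

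MIR17HG (ENSG00000215417, chr13:91347820-91354579, plus strand), which encodes the oncogenic miR-17-92 cluster, had the only fall past 2-fold. It was at 5.79, 11.6 and 9.65 CPM with DMSO and at 2.75, 2.59 and 3.92 CPM with NCD. DMSO replicate 1 was the lowest of its group but still above all NCD libraries, and the log2 fold change was -1.55 (SE 0.27, adjusted p = 0.000755). The 6 main mature microRNAs of the cluster fall into 4 seed groups and are shown from RefSeq (GRCh38.p14) with bases 2 to 8, the seed, in capitals, since these are the products of the transcript that fell.
hsa-miR-17-5p: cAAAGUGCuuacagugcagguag
hsa-miR-20a-5p: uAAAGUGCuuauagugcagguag
hsa-miR-18a-5p: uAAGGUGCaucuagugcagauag
hsa-miR-19a-3p: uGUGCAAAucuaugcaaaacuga
hsa-miR-19b-3p: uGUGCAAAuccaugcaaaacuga
hsa-miR-92a-3p: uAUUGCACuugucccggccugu

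The rows of the miR-17-92 genes held 0 counts in every library, so the host transcript was measured and the microRNAs were not. Most snoRNAs inside the other host genes were not measured either. RefSeq and GENCODE place 157 snoRNA and scaRNA genes in the members, 84 of them in SNHG14, and 143 have a row in the files. Of these rows, 126 were at 0 counts in all libraries, and only SCARNA13, inside SNHG10, reached 10 counts in any library (25.14 at most). The 11 snoRNAs of GAS5, SNORD29 and SNORD31 of SNHG1 and SNORD50A of SNHG5 come from RefSeq alone, and rows for them were not looked up. All changes described are changes in the row of the host gene. For GAS5, SNHG1 and SNHG5, it is not known whether reads from the guests found in RefSeq alone were counted with the host RNA.

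TAF1D (ENSG00000166012, chr11:93729948-93784391, minus strand), which codes for a factor of RNA polymerase I transcription, was at 176, 199.6 and 189.9 CPM with DMSO and at 125, 130.1 and 162 CPM with NCD. The groups did not overlap, although NCD replicate 3 approached the DMSO level, and the log2 fold change was -0.44 (SE 0.10, adjusted p = 0.00356). SNHG4 (ENSG00000281398, chr5:139274102-139284899, plus strand), the host of a pair of box H/ACA snoRNAs, was at 39.0, 42.3 and 45.1 CPM with DMSO and at 28.3, 33.99 and 38.2 CPM with NCD, with no overlap between groups. It fell by 0.33 on the log2 scale (SE 0.11, adjusted p = 0.0275). The calls of SNHG17, SNHG4 and TAF1D were lost with scaling by library totals (log2 fold changes of -0.13, -0.13 and -0.24) and by ribosomal protein genes (-0.34, -0.33 and -0.44, adjusted p = 0.155, 0.208 and 0.092). That of SNHG4 was also lost without DMSO replicate 2 or 3 or NCD replicate 1 or 2 (adjusted p = 0.0532 to 0.0759). MIR17HG was then the 1 member still called lower under every scaling.

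The 3 replicates of a group differed in level across many host genes at once. For the 20 members of at least 10 CPM, DMSO replicate 2 was the lowest control library in 15, with a median deviation of -0.10 (log2) from its group mean. NCD replicate 2 was the highest treated library in 14, with a median deviation of 0.08. Without DMSO replicate 2 the median log2 fold change of the members fell from 0.38 to 0.27 and 14 rose, and without NCD replicate 2 it was 0.32 and 13 rose. The number of rises was as low without DMSO replicate 3 (13, median 0.33) and without NCD replicate 1 (14, median 0.33). It was 17 without DMSO replicate 1 and 18 without NCD replicate 3.

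**Figure D3:**
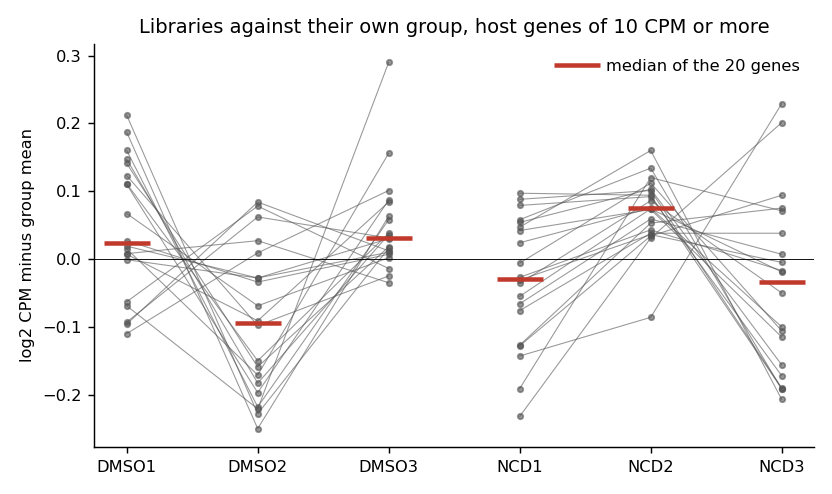
Deviation of log2 CPM from the mean of its own group for each host gene of at least 10 CPM (points) in each library, with the median. DMSO2 sits lowest, at a median of -0.10, and NCD2 highest, at 0.08.

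Rises were found among hosts of each kind of snoRNA, in groups of 4 to 11 tested members that are set beside 35.3% of all tested genes that rose and 34.1% that fell. Of 11 tested members with box C/D guests alone, 6 rose and 5 were not called, with a median log2 fold change of 0.38. Of 10 members with box H/ACA guests alone, 5 rose and 2 fell, with a median of 0.19. GAS5, SNHG25 and SNHG12, which carry both kinds, rose, and TAF1D, which also carries both, fell. Of the 4 scaRNA hosts SNHG22, SNHG20 and SNHG10 rose, while SNHG21 was lower in all 3 NCD libraries and did not pass the test. SNHG22 and SNHG25 passed the filter on low counts through their NCD libraries, so their rises say little about their kinds of host. No snoRNA or scaRNA gene was found inside SNHG28, which was not called, or inside MIR17HG, which fell. Members with and without a TOP start are read against the same background. Of 15 tested members with a TOP start 10 rose and 2 fell (median 0.41), and of 16 without one 7 rose and 2 fell (median 0.21).

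Coding genes that carry snoRNAs fell more often than they rose. Of 166 tested protein-coding genes, not members, that hold an annotated snoRNA or scaRNA gene, 23 rose (13.9%) and 77 fell (46.4%). The shares over all tested genes were 35.3% and 34.1%. The median log2 fold change of these coding hosts was -0.17. The coding hosts are longer than the members, with a median span of 31.7 kb. Over 20 kb, 11 of 101 coding hosts rose (10.9%) and 64 fell (63.4%). Among all tested genes of that span, 25.4% rose and 48.4% fell. Within 20 kb, 12 of 65 coding hosts rose (18.5%) and 13 fell (20%), with a median of 0.03. The short members gave 61.5% and 11.5%, and all tested genes of at most 20 kb gave 51.0% and 14%. On a hand-written list of 43 coding hosts, which also holds TAF1D, 7 rose (16.3%) and 22 fell (51.2%). Examples are HSPA9, a mitochondrial chaperone (log2 fold change 0.69), and WDR43, a ribosome biogenesis factor (-2.03).

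**Figure D4:**
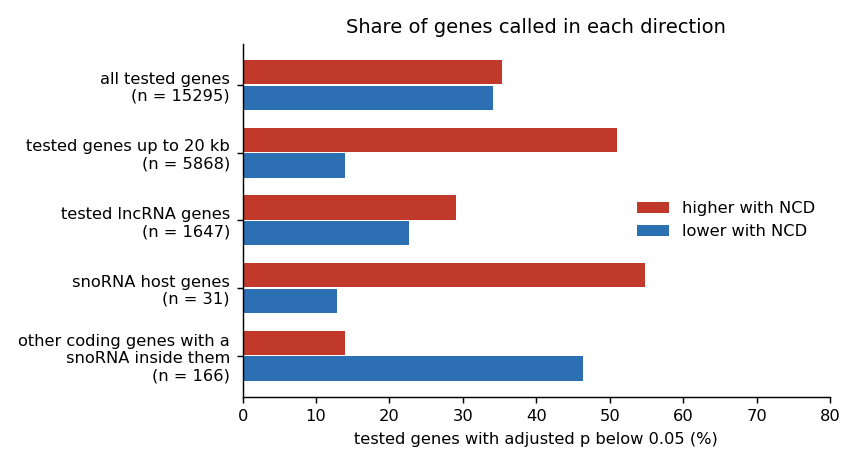
Percent of tested genes that rose and that fell (adjusted p below 0.05) in the host genes and in the comparison sets, with the number tested beside each set. The host genes of any span stand at 54.8% and 12.9%, and all genes of at most 20 kb at 51.0% and 14%. The 26 host genes of at most 20 kb, not drawn apart, gave 61.5% and 11.5%.

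Several host genes changed unlike the gene that starts beside them. In all, 9 members begin within 1 kb of another measured gene on the opposite strand, and 9 such pairs were compared by the log2 ratio of neighbour to host within each library. SLC3A2, the amino acid transporter subunit CD98hc, starts 188 bases from SNHG1 and was at 231 to 234 CPM with DMSO and 660.1 to 736 CPM with NCD. Its log2 fold change of 1.61 (adjusted p = 7.29e-08) stood beside 0.12 for SNHG1. The ratio moved by 1.49 (log2) with no overlap between groups (exact two-sided permutation p = 0.1, adjusted 0.15). ZNFX1, an RNA helicase-like antiviral factor, starts 248 bases from ZFAS1 and rose by a log2 fold change of 1.37 against 0.38, a ratio change of 0.99.

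MED17, a Mediator subunit, starts 164 bases from TAF1D and rose by 0.35 while TAF1D fell by 0.44 on the log2 scale. In the other direction, SNHG19, SNHG9 and SNHG22 outran TRAF7 (log2 fold change 0.56), RPS2 (-0.12) and ACAA2 (0.02), with ratio changes of -0.98, -1.12 and -1.04. Each of these 6 pairs had no overlap between groups and the same smallest p of 0.1 (exact two-sided permutation test, adjusted 0.15 over 9 pairs). SNHG22 passed the filter on low counts through its NCD libraries, so the difference in its pair was partly built in. For GAS5 and ZBTB37 (log2 fold change -0.06) the ratio changed by -1.06 with overlapping groups (exact permutation p = 0.2, adjusted 0.257). Whether reads were counted by strand is not given in the sources used here, and the bodies of ZFAS1, TAF1D and GAS5 overlap the opposite gene, so reads of the overlapped parts may be shared. The same limit holds for other members with a measured coding gene on the opposite strand, among them SNHG10 (at least 121.9 counts in a library) with GLRX5 (up to 1655), SNHG12 (at least 218.5) with TRNAU1AP (up to 672) and SNHG22 (at least 6) with MYO5B (up to 48).

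**Figure D5:**
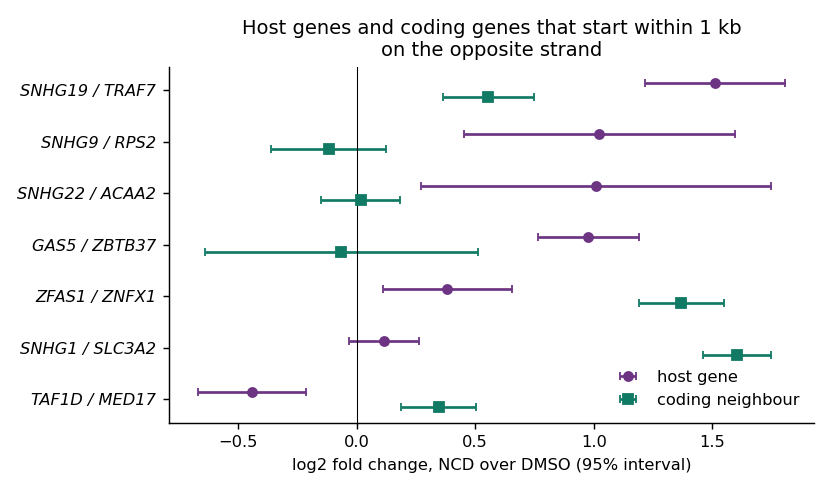
Log2 fold change, with its 95% interval, of host genes and of the coding genes that start within 1 kb on the opposite strand. SLC3A2 at 1.61 lies far above SNHG1 at 0.12, and SNHG19 at 1.51 lies above TRAF7 at 0.56.

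In all, 4 tested members share a strand and exonic or intronic sequence with a measured coding gene, namely SNHG3 with RCC1, SNHG20 with SEC14L1, SNHG4 with MATR3 and SNHG28 with ENSG00000256029, and their counts are uncertain. Without them, 16 of 27 members rose (59.3%) and 3 fell (11.1%), with a median log2 fold change of 0.38.

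Genes that make or remove these RNAs are given beside the same 35.3% of all tested genes that rose and 34.1% that fell, so that a list with changes in both directions is the usual case in these data. Of the 4 core box C/D proteins, the scaffold NOP56 rose (log2 fold change 0.20) and its partner NOP58 fell (-0.79). Of the 6 box H/ACA proteins and assembly factors, SHQ1 (-1.07) and the pseudouridine synthase DKC1 (-0.19) fell and the other 4 were not called. Among 14 factors of snoRNA maturation, 4 rose (28.6%), among them the lariat debranching enzyme DBR1 (1.07), and 7 fell (50%), among them PARN (-2.29), a 3′ trimming nuclease, and ZNHIT6 (-1.22), which assembles box C/D particles.

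Of 21 NMD factors, 10 rose (47.6%), including SMG8 (log2 fold change 1.16), UPF3A (0.95) and EIF4A3 (0.67), and 9 fell (42.9%), including NBAS (-4.97) and the release factor GSPT1 (-1.10). Of 17 genes on a hand-written list of NMD-sensitive messages, 11 rose (64.7%) and 4 fell (23.5%), with a median log2 fold change of 0.67. Counts per gene do not separate the transcripts of a gene, so the level of an NMD-sensitive transcript by itself was not measured. The leading rises were those of ASNS (2.67), CHAC1 (3.74) and ATF3 (3.21), which are also known targets of the amino acid response, and the falls were led by SRSF2 (-1.09) and HNRNPA2B1 (-1.07). Of 22 TOP messages other than ribosomal protein genes, 11 fell, led by SSR2 (-1.81), EIF3H (-1.47) and HNRNPA1 (-1.15), and 11 were not called, with a median of -0.22.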

How the data were processed

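The authors aligned reads with HISAT2 to the human genome (GRCh38 in the submitters' notes) and deposited expected counts per Ensembl gene from RSEM, unnormalized, 1 library per file. The annotation release, strand setting and selection of RNA before library construction are not given in the sources used here. In each file 25 stray lines without a gene were skipped. Symbols were found for 62666 of 63241 identifiers, and GENCODE 29 held 58228. The members and all gene lists were chosen with earlier results of these data known.

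Expected counts were rounded and analysed in R 4.3.3 with edgeR 4.0.16 (filterByExpr, TMM, glmQLFit, glmQLFTest). SEs were derived from the fold change and the F statistic. The script was tested on simulated data. Every member is accounted for, with values in every library for those of at least 10 CPM and at either end of the order, and at most 3 genes per direction by p from other lists. Of the genes this rule covers, 1 is not reported here. Guests were taken from RefSeq and GENCODE 29 by position (strand only from GENCODE). Genes with few counts per library are measured poorly, and totals ranged from 18223594 to 21629653 counts. Alternatives were DESeq2 1.42.0, limma-voom (limma 3.58.1), other scalings and filters, a prior count of 2, a replicate block and each library left out. Permutation tests used scipy 1.17.1. No 2 replicates were alike within sampling noise (chi-square per degree of freedom of at least 2.05). The authors' own DESeq2 results were not used.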

Additional observations from a re-analysis of the deposited data

How the results depend on the processing

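Scaling by library totals shifted the median change over all genes from 0.04 to 0.23 (log2), so changes are best read against that shift. It moved the members' median to 0.575, their rises past 2-fold from 4 to 8 and their falls from 4 to 1. The ratio of summed CPM went from 1.30 to 1.49. Under library totals the split of all tested genes that rose and fell moved from 35.3% and 34.1% to 44.6% and 27.3%. The members' median was 0.34 above that of all genes under either scaling. A scaling shifts all genes nearly alike, so it could hardly change this difference. Without DMSO replicate 2 the difference was 0.23, and without NCD replicate 2 it was 0.29. With ribosomal protein genes as the reference the falls were 1 and the rises 14, and with limma-voom the rises past 2-fold were 2. Rises at any fold were 15 with DESeq2, 17 with limma-voom and 23 with library totals. Leaving out 1 library in turn gave 13 to 18 rises, 3 to 5 falls, 2 to 5 rises and 1 to 2 falls past 2-fold (2 rises without NCD replicate 2, 2 falls without NCD replicate 3), a median of 0.27 to 0.37 and a sum ratio of 1.24 to 1.34. Deviations of same-numbered libraries from their group means had correlations of 0.31, -0.27 and 0.03. Deviations within a group of 3 libraries depend on each other, so these values cannot decide whether the numbers pair the samples. With the replicate block 16 members rose and 4 fell, SNHG25 being lost (adjusted p = 0.0746). DANCR turned sign with library totals (0.17), without DMSO replicate 1 (0.003) and without NCD replicate 3 (0.009), and SNHG15 without DMSO replicate 2 (-0.051) and without NCD replicate 2 (-0.002), within ranges over the left-out libraries of -0.107 to 0.009 for DANCR and -0.051 to 0.091 for SNHG15. Leaving out host genes overlapped by a coding gene was chosen after seeing the data. Of 431 values of single host genes under the alternatives, 378 were counted as the same, 35 lost the call, 13 gained it and 5 turned sign. The same means an unchanged direction and side of the threshold. The prior count of 2 gave no p-value, so its values were counted as the same when they moved by less than the SE. Causes of these moves were not tested. With at least 10 counts in every library, 28 members were tested, without SNHG22, SNHG25 and SNHG28.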
